A study of Homo sapiens with 96 samples.

Results

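The data compared here were RNA editing sites in K562 cells treated with either of 2 mTOR inhibitors, Torin1 and rapamycin, for 3 or 6 h. The 4 samples, Torin1 at 3 h and 6 h and rapamycin at 3 h and 6 h, were picked by their treatment and time labels out of the 96 samples analysed, and they formed 2 pairs matched by time. There was 1 sample for each drug and time, so no difference between the drugs has a replicate check. A site was counted as found in a sample when its editing level there was above 0. Of the 4092 sites with editing levels in the list, 600 had a level above 0 with either drug at either time. They fell into 375 clusters, which join sites within 100 bases on one strand, and 267 host genes, with 40 sites outside any gene annotated on their strand.

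K562 is a human line from a chronic myeloid leukemia, grown here as a suspension culture in serum-containing medium. Both drugs were dissolved in DMSO and used at the same nominal concentration, according to the study's methods, and the cells were the parental line, not one of its transduced derivatives. Strand-specific RNA-seq was performed on total RNA after removal of ribosomal RNA, and the value for each site and sample is an editing level, the fraction of reads with the edited base, from 0 to 1. Vehicle is represented here by 4 DMSO samples, a pair at 2 h and a pair at 6 h, and other DMSO samples, at later times or treated in steps, enter only the ranges over the 96 samples. No sample with DMSO alone for 3 h was used. The list holds editing levels only, so marker genes of K562 and the expression of host genes could not be checked.

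Adenosine deaminases acting on RNA, the ADAR enzymes, convert adenosine to inosine in double-stranded RNA, and inosine is read as guanosine in sequencing. The kinase mTOR works in 2 complexes, mTORC1, which promotes translation and ribosome production and restrains autophagy, and mTORC2, which phosphorylates AKT. Rapamycin binds FKBP12 and inhibits mTORC1 allosterically, while Torin1 competes with ATP in the kinase site and inhibits both complexes.

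The sequences around the sites on which the comparison turns are given on the transcribed strand, 5′ to 3′, as 29 bases of GRCh38 with the edited adenosine in capitals. The first 4 belong to sites found in all 4 samples whose levels were apart between the drugs at both times, and the next 4 are the sites in the 3′ UTR of SMU1 found in both Torin1 samples and neither rapamycin sample. The last 3 are an ADPGK site found with Torin1 only and ESPL1 and KPNA1 sites found with rapamycin only.
PWP1 intron, chr12:107697822-107697850, plus strand: actagttcaaagctAgtatattaatatga
DCPS 3′ UTR, chr11:126346686-126346714, plus strand: atggcaggctcctaAgtgacagcaggggg
Antisense to an intron of PIAS2, chr18:46813425-46813453, plus strand: aagccaaaagcattAtatcagtatagaat
BLCAP coding sequence, chr20:37519156-37519184, minus strand: ggcagagatcatgtAttgcctccagtggc
SMU1 3′ UTR, chr9:33043900-33043928, minus strand: catgtattattactAccactaacggcctc
SMU1 3′ UTR, chr9:33043852-33043880, minus strand: atgtaagcagccatAtttaattctcagaa
SMU1 3′ UTR, chr9:33042301-33042329, minus strand: ttgttctgagaattAaatatggctgctta
SMU1 3′ UTR, chr9:33042255-33042283, minus strand: caacagaggctgttAgtggtagtaataat
ADPGK intron, chr15:72776992-72777020, minus strand: gtgtgtcatggagaAgttctggcttatat
ESPL1 intron, chr12:53281710-53281738, plus strand: atttccctggagctAggcagtatgttcct
KPNA1 5′ UTR, chr3:122459540-122459568, minus strand: aggaaatccagacaAccaacactgcagag

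The number of sites found was 287 with Torin1 and 189 with rapamycin at 3 h, and 176 with Torin1 and 214 with rapamycin at 6 h. The drug with more sites therefore differed between the times. Torin1 had 1.52 times as many sites as rapamycin at 3 h and 0.822 times as many at 6 h. The exact permutation test that exchanges the drugs within each time gave a two-sided p of 1, and with 2 pairs the smallest p it can give is 0.5. The vehicle samples had 173 and 238 sites at 6 h and 287 and 255 at 2 h, a range that holds all 4 drug samples. Over the 96 samples the number of sites ran from 30 to 633, with a median of 235.5.

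Depth went the other way at 3 h, where the Torin1 library had 27398956 reads and the rapamycin library 30799286. At 6 h the libraries were close in depth, with 34172633 reads for Torin1 and 34702140 for rapamycin. Torin1 thus gave 10.5 sites per 1000000 reads at 3 h and 5.15 at 6 h, against 6.14 and 6.17 for rapamycin. The vehicle samples gave 4.97 and 7.22 at 6 h and 7.09 and 6.24 at 2 h. Scaled by depth, Torin1 at 3 h was thus above every vehicle sample, and the other drug samples were within their range. Counted by clusters, Torin1 had 182 at 3 h and 128 at 6 h, and rapamycin had 138 and 156. A site counts as found only where its transcript is sequenced deeply enough, so less editing and less RNA from a gene cannot be told apart in these counts.

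Of the sites found, 86.4% at 3 h and 91.5% at 6 h were annotated in public editing databases for Torin1, against 80.4% and 86.0% for rapamycin. The share of annotated sites was thus higher with Torin1 at both times. The 4 vehicle samples lay between 84.4% and 93.7%, and the exact permutation test over the 2 pairs gave p = 0.5, its smallest value. Among the 7 measures put through this test, none could pass a threshold of 0.05 by design.

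Most sites were found in a single sample of the 4. Of the 600, 431 were found in 1 sample, 102 in 2, 37 in 3 and 30 in all 4. Sites found in 1 sample were present in a median of 5 of the other 92 samples, and those found in all 4 in a median of 47. Detection by all 3 prediction tools applied to 40.6% of the sites found in 1 sample and 70.0% of those found in all 4, against 21.0% of the 3492 listed sites found in none. The authors pooled the tools of a site over samples, so sites present in more samples had more chances to reach all 3. Only 31 of the 431 were found in none of the other 92 samples. The authors kept only sites predicted in at least 2 of their 130 samples, so presence in another sample was partly fixed by that selection. The samples of earlier publications, not used here, were not searched for these 31 sites.

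By drug, 388 sites were found with Torin1 at any time and 339 with rapamycin, and 127 were shared, which is 32.7% of the Torin1 sites and 37.5% of the rapamycin sites. Torin1 alone accounted for 261 sites and rapamycin alone for 212. Both times were needed for few of them. Of the 600 sites, 25 (4.17%) were found in both Torin1 samples and neither rapamycin sample, and 17 (2.83%) in both rapamycin samples and neither Torin1 sample. Among the 25 sites, 14 were also found in at least 1 of the 4 vehicle samples, and among the 17 sites, 6 were. None of either set was absent from the other 92 samples.

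**Figure D1:**
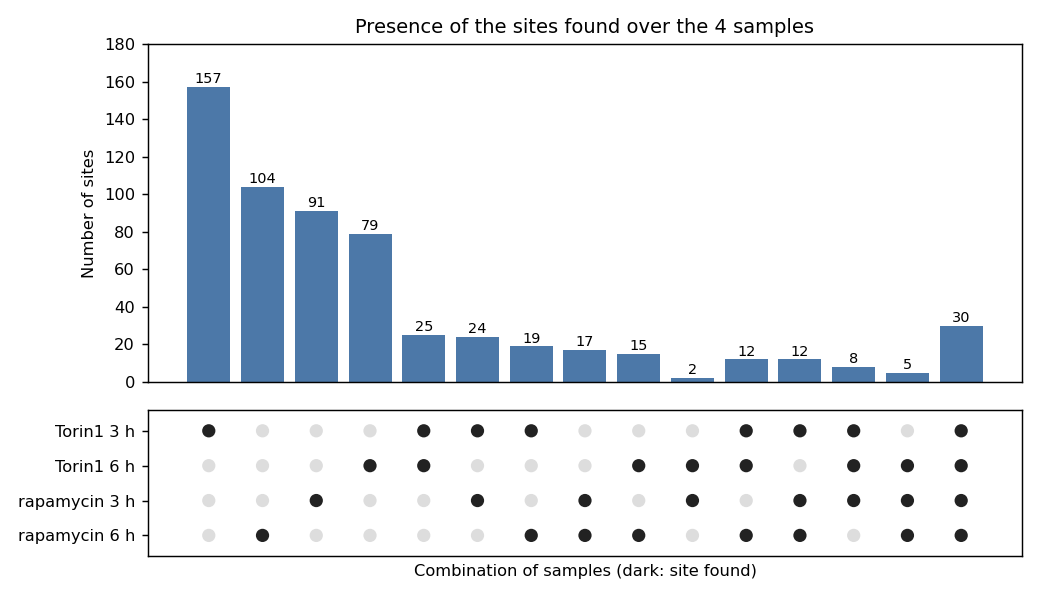
Number of sites (vertical axis) for each combination of the 4 samples in which a site was found. Dark points under a bar mark the samples that hold the site. The 4 bars of sites found in a single sample (79 to 157) are taller than all bars of shared sites, the tallest of which is that of the 30 sites found in all 4 samples.

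Samples of the 2 drugs at one time shared about as many sites as samples of one drug at the 2 times. At 3 h, Torin1 and rapamycin shared 74 sites, 25.8% of the Torin1 sites and 39.2% of the rapamycin sites. At 6 h they shared 62 sites, 35.2% and 29.0%. As a share of the sites found in either sample of the pair these were 18.4% and 18.9%. The 2 Torin1 samples shared 75 sites (19.3%) and the 2 rapamycin samples 64 sites (18.9%). The vehicle samples of one condition shared 16.1% at 6 h and 19.6% at 2 h, so the overlap between drugs lay within that range. A pair of romidepsin samples at 6 h, whose names conflict between sources, shared 9.44%.

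Levels at the shared sites showed no shift in one direction that was larger than the differences within a condition. At 3 h the median difference, Torin1 minus rapamycin, was -0.0253 over the 74 sites, of which 29 were higher and 44 lower with Torin1. At 6 h it was -0.00269 over the 62 sites, with 28 higher and 32 lower. Between vehicle samples of one condition the median difference was 0.0429 at 6 h and -0.0182 at 2 h. The median of the absolute difference was 0.106 at 3 h and 0.0947 at 6 h, against 0.104 and 0.0788 for the vehicle pairs of 6 h and 2 h. The exact permutation test over the 2 pairs gave p = 0.5, its smallest value. Across the shared sites, Pearson's r between the drugs was 0.591 at 3 h and 0.661 at 6 h, as a description only, since all values of a sample share one library.

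A difference of at least 0.2 in level was taken as large. It was reached at 3 h by 10 sites with a higher level with Torin1 (13.5%) and 10 with a lower level (13.5%), together 27.0% of the 74. At 6 h it was reached by 8 sites higher (12.9%) and 7 lower (11.3%) with Torin1, together 24.2% of the 62. The corresponding share was 21.3% between the 2 Torin1 samples, 34.4% between the 2 rapamycin samples, and 17.5% and 20.2% between the vehicle samples of 6 h and 2 h. Large differences were therefore about evenly split in direction. They were more frequent between the drugs than between the times of Torin1 or the vehicle samples. Between the times of rapamycin and the pair of romidepsin samples at 6 h (31.25%) they were more frequent still.

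**Figure D2:**
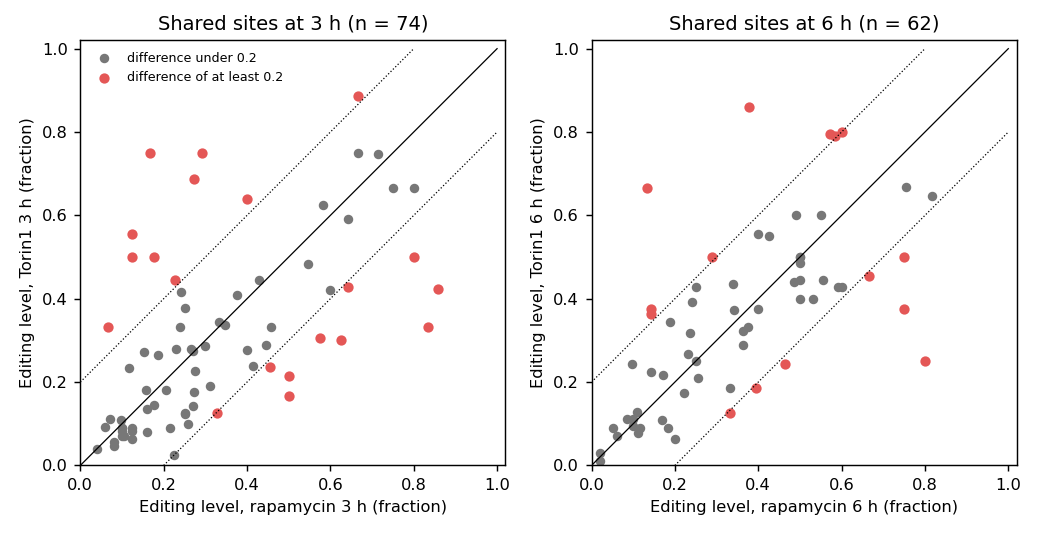
Editing levels (fraction) with Torin1 on the vertical axis against rapamycin on the horizontal axis at sites found with both drugs, for 3 h (left, 74 sites) and 6 h (right, 62 sites). Each point is a site, the solid line marks equal levels and the dotted lines a difference of 0.2. The 20 sites at 3 h and 15 at 6 h at or outside the dotted lines lie on both sides.

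Over all sites found in a sample, the median level was 0.302 with Torin1 and 0.293 with rapamycin at 3 h, and 0.369 and 0.350 at 6 h. The medians at 6 h were above those at 3 h for each drug, over sets of sites that differed between the samples. All 4 medians were within the range of the 96 samples, from 0.25 to 0.5, and of the vehicle samples, from 0.256 to 0.400. At sites found at both times, the median of 3 h minus 6 h was -0.0133 with Torin1 (75 sites) and -0.00286 with rapamycin (64 sites).

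Among the 30 sites found in all 4 samples, 9 (30.0%) had a lower level with Torin1 at both times and 4 (13.3%) a higher one. In 4 of the 9 (13.3% of the 30) both Torin1 levels were below both rapamycin levels, and in 2 of the 4 (6.67% of the 30) both were above. A difference of at least 0.2 at both times was seen at 2 sites lower (6.67%) and 1 site higher (3.33%) with Torin1.

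The site with the higher level lies at chr12:107697836 in an intron of PWP1, which codes for a WD-repeat protein of ribosome biogenesis. Its level was 0.887 with Torin1 and 0.667 with rapamycin at 3 h, and 0.795 and 0.573 at 6 h. The differences were 0.221 and 0.222. The 2 groups did not overlap, but 3 of the 4 vehicle samples, at 0.667 to 0.714, lay between them or at the edge of the rapamycin values. Over 32 other samples with the site the level ran from 0.5 to 1, with a median of 0.764.

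The DCPS site at chr11:126346700 lies in the 3′ UTR of the gene for the scavenger decapping enzyme, which hydrolyses the cap left after mRNA decay. Its level was 0.422 with Torin1 and 0.857 with rapamycin at 3 h, and 0.455 and 0.667 at 6 h. The Torin1 levels were near the median of 0.384 over 47 other samples, and both rapamycin levels were above it. The 3 vehicle samples with the site had levels of 0.457, 0.375 and 0.255.

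Among the sites that differed one way at both times, the largest mean difference was at chr18:46813439, a site antisense to an intron of PIAS2, a SUMO ligase gene on the other strand. Its level was 0.333 with Torin1 and 0.834 with rapamycin at 3 h, and 0.243 and 0.465 at 6 h. Both vehicle samples at 6 h held the site, at 0.377 and 0.518, between the 2 drugs in the first case and above 3 of the 4 drug samples in the second. The 54 other samples with the site ran from 0.158 to 0.857, so every value of the drug samples was within that range.

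BLCAP, a gene named for its loss in bladder cancer, holds a recoding site at chr20:37519170 that changes codon 2 from tyrosine to cysteine (Y2C in GENCODE 44, exon 2). The level was 0.1 with Torin1 and 0.258 with rapamycin at 3 h, and 0.0900 and 0.184 at 6 h. The 3 vehicle samples with the site had 0.140, 0.110 and 0.270, so they ran from just above the Torin1 levels to above both rapamycin levels. Its neighbour at chr20:37519161, Q5R, was found with rapamycin at 6 h only, at 0.0700, while all 4 vehicle samples held it, at 0.0800 to 0.210.

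Of the other sites lower with Torin1 at both times, the one in ADGRB3, an adhesion G protein-coupled receptor gene, had 0.482 and 0.429 with Torin1 against 0.546 and 0.591 with rapamycin at 3 h and 6 h. A pair of intronic sites of ITGAV, the gene for integrin alpha V, had 0.0909 and 0.185 against 0.1 and 0.395, and 0.125 and 0.323 against 0.25 and 0.364. In both ITGAV sites the level was higher at 6 h than at 3 h with each drug, so the groups overlapped. Another ITGAV site found in all 4 samples, at chr2:186628845, had 0.75 and 0.444 with Torin1 against 0.167 and 0.556 with rapamycin, higher with Torin1 at 3 h and lower at 6 h. The intronic site of LRPPRC, whose product stabilises mitochondrial mRNAs, was lower with Torin1 at both times, with 0.141 and 0.441 against 0.270 and 0.485. Its level was also higher at 6 h than at 3 h with each drug. A site antisense to PPM1F, a phosphatase gene, had 0.290 and 0.174 against 0.444 and 0.222, and its levels at 3 h with both drugs were above the highest of 14 other samples, 0.264.

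The remaining sites higher with Torin1 at both times differed less at one of the times. CD164, the gene for a sialomucin, had 0.181 and 0.218 with Torin1 against 0.158 and 0.171 with rapamycin in its 5′ UTR, without overlap. Vehicle samples with the CD164 site had 0.146, 0.235 and 0.26, a range that holds all 4 drug levels. The median over 58 other samples was 0.360. SLF1, which recruits the SMC5/6 complex to damaged DNA, had 0.625 and 0.5 against 0.583 and 0.289 in an intron. LINC00534, a very long intergenic RNA (vlincRNA) locus, had 0.111 and 0.375 against 0.0714 and 0.143.

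**Figure D3:**
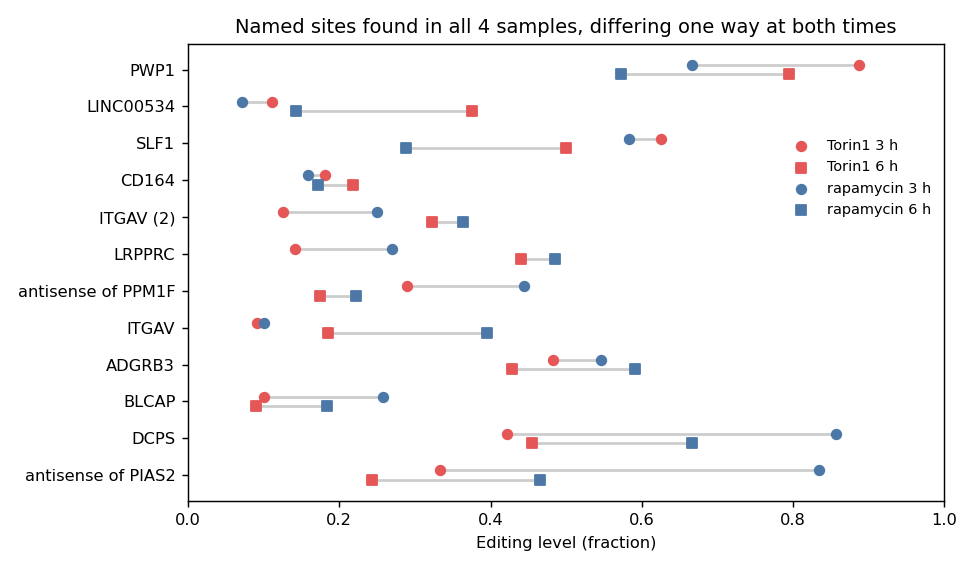
Editing level (fraction, horizontal axis) of 12 sites found in all 4 samples whose difference between the drugs had one direction at both times, with red for Torin1, blue for rapamycin, circles for 3 h and squares for 6 h. Lines join the 2 drugs at one time. PWP1 at the top is higher with Torin1 by 0.221 and 0.222, and DCPS and the site antisense to PIAS2 at the bottom are lower by at least 0.2 at both times.

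The share of sites in 3′ UTRs was higher with Torin1 than with rapamycin at both times. With Torin1, 49 of 287 sites at 3 h (17.1%, Wilson 95% interval 13.2 to 21.9%) and 50 of 176 at 6 h (28.4%, 22.3 to 35.5%) were in 3′ UTRs. With rapamycin it was 19 of 189 (10.1%, 6.53 to 15.2%) and 29 of 214 (13.6%, 9.60 to 18.8%). The Torin1 share was 1.70 times the rapamycin share at 3 h, with p = 0.5 in the exact permutation test over the 2 pairs, its smallest value. Vehicle samples had 16.9% to 22.3%, below Torin1 at 6 h and above both rapamycin samples. Over the 96 samples the share ran from 6.32% to 47.4%, so a range this wide occurred across treatments.

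The difference in 3′ UTRs rested in part on many sites in few clusters. Without the sites of SMU1 the shares were 12.8% and 23.2% for Torin1 against 9.57% and 11.1% for rapamycin. Counted as clusters, they were 11.5% and 17.2% for Torin1 against 12.3% and 12.8% for rapamycin, so the direction turned at 3 h. With levels of at least 0.2 only, they were 7.94% and 15.5% against 6.25% and 6.62%, so the difference was 1.69 percentage points at 3 h and 8.88 at 6 h, in place of 7.02 and 14.9. The 3′ UTR sites were edited at low levels in every sample, with medians of 0.122 and 0.131 for Torin1 and 0.160 and 0.143 for rapamycin.

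In all, 84 of the 282 listed 3′ UTR sites (29.8%) were found in the 4 samples, in 27 genes, against 14.7% of all listed sites. Of these, 74 were found with Torin1, 38 with rapamycin and 28 with both. Torin1 alone accounted for 46 and rapamycin alone for 10. Among the sites found at both times with one drug only, 10 of 25 for Torin1 and 0 of 17 for rapamycin were in 3′ UTRs. This compares with 20 of the 102 sites found in 2 samples and 84 of all 600 sites found. Of the 10 sites, 4 were in SMU1 and 3 in DCPS, and neighbouring sites are not independent.

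Introns held the most sites in every sample, 57.8% and 51.7% with Torin1 and 61.4% and 61.2% with rapamycin, against 68.9% of the list. The vlincRNAs, which are non-coding transcripts of great length, held 11.1% and 6.25% with Torin1 and 16.4% and 8.88% with rapamycin. Both shares were lower with Torin1 at both times. The vehicle samples spanned 49.1% to 57.8% for introns and 2.44% to 16.2% for vlincRNAs.

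**Figure D4:**
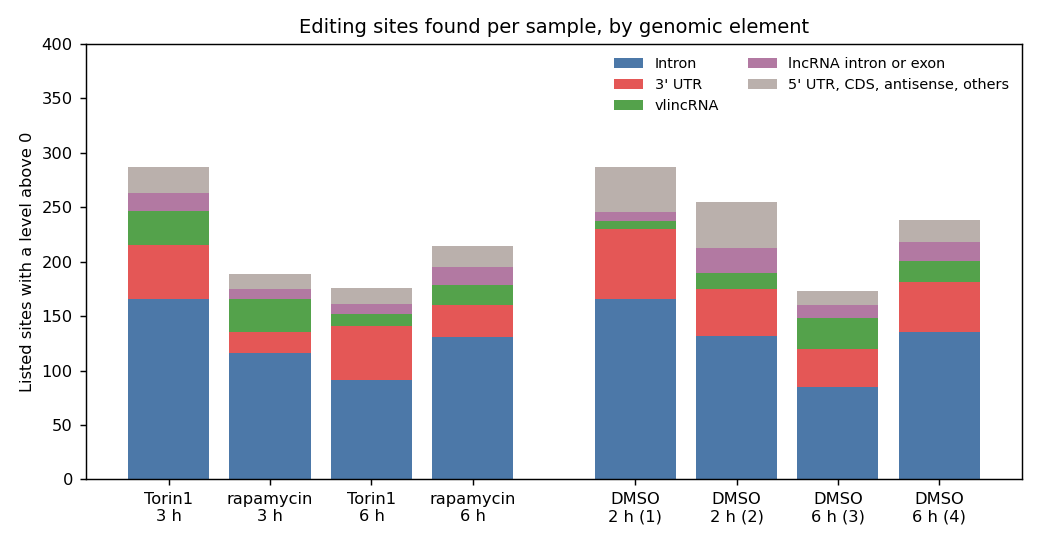
Number of listed sites with a level above 0 (vertical axis) in the 4 drug samples and the 4 vehicle (DMSO) samples, stacked by genomic element, with the vehicle sample numbers in brackets. The 3′ UTR segment (red) holds 49 and 50 sites with Torin1 and 19 and 29 with rapamycin, and the totals of the vehicle samples, 173 to 287, span those of the drugs.

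SMU1, which codes for a WD-repeat protein of the spliceosome, had the most sites found in the 4 samples, 20 of its 29 listed, all in the 3′ UTR. It had 14 sites with Torin1 and 1 with rapamycin at 3 h, and 12 with Torin1 and 6 with rapamycin at 6 h. The number was higher with Torin1 at both times. The vehicle samples had 0 and 0 at 6 h and 19 and 7 at 2 h, so samples of one condition differed at 2 h and not at 6 h. Over the 96 samples the number ran from 0 to 19, with a median of 3.5.

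Of the SMU1 sites, 4 were found with Torin1 at both times and never with rapamycin. At chr9:33043914 the level was 0.210 at 3 h and 0.212 at 6 h, and at chr9:33043866 it was 0.0909 and 0.308. At chr9:33042315 the level was 0.195 and 0.287, and at chr9:33042269 it was 0.182 and 0.0667. All 4 were found in other samples, between 19 and 44 of the 92. The sole SMU1 site with rapamycin at 3 h, at chr9:33042301, had a level of 0.400, against 0.277 with Torin1.

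The SMU1 sites formed 2 clusters on the minus strand, and the sequences of the clusters were close to reverse complements of each other. This was examined after the sequences had been seen, by sliding the reverse complement of the 29 bases around each site, without gaps, over the 5000 bases on either side. The bases around chr9:33043866 had a perfect inverted copy, 29 of 29 bases, centred 1554 bases away in the other cluster, and those around chr9:33042315 one centred 1548 bases away. In the window of chr9:33042269, 28 of 29 bases were matched, and in that of chr9:33043914, 27 of 29. With at least 24 matches taken as a copy, 19 of the 20 SMU1 sites found had one, at a median distance of 1582 bases.

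Inverted copies of this kind were common near listed sites. They were present for 1720 of the 4092 sites (42.0%) and for 286 of the 600 sites found here (47.7%). The share was 54.7% with Torin1 and 43.9% with rapamycin at 3 h, and 44.9% and 41.1% at 6 h. It was 53.3% of the 261 sites found with Torin1 alone and 38.7% of the 212 found with rapamycin alone. Neighbouring sites share their copies, so these shares describe clusters more than single sites. Among the sites printed above, BLCAP Y2C had 25 of 29 bases matched 509 bases away and ESPL1 had 26 of 29 matched 377 bases away. The PWP1 site had 19, the DCPS site 20 and the site antisense to PIAS2 17, all under the minimum.

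**Figure D5:**
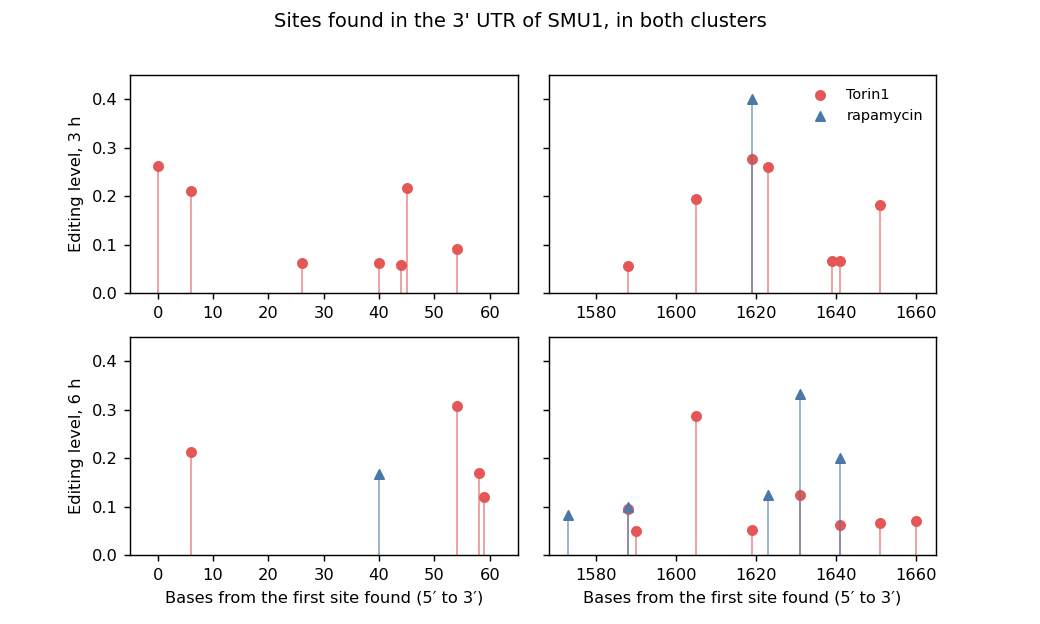
Editing level (fraction, vertical axis) of the sites found in the 3′ UTR of SMU1 against the distance in bases from the first of them along the transcript, for 3 h (top) and 6 h (bottom), with the 2 clusters in separate panels. Red circles are Torin1 and blue triangles rapamycin. Torin1 has sites in both clusters at both times (14 and 12 in all), while rapamycin has 1 site at 3 h and 6 at 6 h.

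DCPS had 4 and 7 sites with Torin1 and 1 and 2 with rapamycin at 3 h and 6 h, out of 23 listed in its 3′ UTR. The vehicle samples had 1 and 7 at 6 h and 7 and 7 at 2 h, so 1 vehicle sample was as low as rapamycin. The 3 DCPS sites found with Torin1 at both times and never with rapamycin had low levels, 0.182 and 0.143 at chr11:126346590, 0.0714 and 0.167 at chr11:126346594 and 0.0909 and 0.0556 at chr11:126346762. In the same 3′ UTR, the site found in all 4 samples was lower with Torin1, so the number of sites and the level at that site went in opposite directions.

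DDX10, a DEAD-box RNA helicase of ribosome biogenesis, had 9 and 4 intronic sites with Torin1 and 2 and 4 with rapamycin at 3 h and 6 h. Of its sites, 3 were found in both Torin1 samples and neither rapamycin sample, and 1 in both rapamycin samples and neither Torin1 sample. DDX10 was found with a site in 25 of the 96 samples, and the vehicle samples had 0 to 3 sites. MTCH1, which codes for a protein of the outer mitochondrial membrane, had 7 and 6 sites with Torin1 and 2 and 7 with rapamycin. The vehicle samples had 6 and 1 MTCH1 sites at 6 h and 10 and 2 at 2 h. LINC00534 had 9 and 5 with Torin1 and 11 and 8 with rapamycin. Of the 6 genes with the most sites, it was the only one in which rapamycin led at both times. The vehicle samples had 15 and 8 LINC00534 sites at 6 h and 3 and 6 at 2 h, a range that holds all 4 drug samples. SLF1 had 7 sites at 3 h and 1 site at 6 h with each drug, and STXBP5, the gene for the vesicle fusion regulator tomosyn, had 6 and 3 against 4 and 2.

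Other genes with sites found in both Torin1 samples and neither rapamycin sample had 1 such site each. ADPGK, an ADP-dependent glucokinase, had levels of 0.750 and 0.857 at 3 h and 6 h, and 3 of the 4 vehicle samples held the site at 0.648, 0.429 and 0.556. ZCCHC7, a zinc-finger protein of the nuclear RNA decay machinery, had 0.667 and 0.406. The stress sensor of the endoplasmic reticulum ATF6 and the importin KPNA6 each had 0.5 at both times, and AZI2, an adaptor of TBK1 signalling, had 0.444 and 0.5, with 1 vehicle sample at 0.75. Vehicle samples lacked the ZCCHC7, ATF6 and KPNA6 sites, which were found in 3, 4 and 2 of the other 92 samples.

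In the reverse direction, ESPL1, which codes for separase, had a site with levels of 0.750 and 0.667 in the rapamycin samples at 3 h and 6 h, unannotated in the databases and found in 6 other samples. Another intronic site of ESPL1, at chr12:53282039, was found in all 4 samples, with 0.302 and 0.556 for Torin1 and 0.625 and 0.400 for rapamycin. PCDH9, a protocadherin gene, had 0.800 and 0.600, and KPNA1, an importin gene, had 0.721 and 0.5 in its 5′ UTR. CSTF1, a subunit of the cleavage stimulation factor, had 0.5 and 0.636 at a site that 2 vehicle samples also held, at 0.330 and 0.5. RAD18, a ubiquitin ligase of DNA damage tolerance, and the forkhead gene FOXJ3 had 0.333 and 0.668, and 0.333 and 0.750. The RAD18 site was also held by 2 vehicle samples, at 0.279 and 0.4. The sites of ANKRD17 and TMEM245 had 0.5 and 0.5, and 0.2 and 0.425, and 2 vehicle samples held the TMEM245 site, at 0.433 and 0.314. Vehicle samples lacked the ESPL1, PCDH9, KPNA1, FOXJ3 and ANKRD17 sites.

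Genes of the mTOR pathway held few listed sites. Of 69 genes in the list used, 14 hosted 31 listed sites, of which 2 (6.45%) were found in the 4 samples, against 14.7% of all listed sites. AKT2, a kinase downstream of mTORC2, had a level of 0.400 with rapamycin at 6 h, and PIK3CA, a catalytic subunit of PI3-kinase, had 0.5 with rapamycin at 3 h. No site of this list was found with Torin1. Each of the 2 sites came from 1 sample, so they show no difference between the drugs. The AKT2 site was also held by the vehicle samples of 2 h, at 0.136 and 0.2, and found in 22 of the other 92 samples. The sites of MTOR, RPTOR and RICTOR were found in none of the 4 samples.

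Among 39 autophagy genes, 7 hosted 30 listed sites and 6 of these were found (against 14.7% of all listed sites), 3 and 1 with Torin1 and 0 and 3 with rapamycin at 3 h and 6 h, in RB1CC1, ATG7 and PIK3C3. Among 36 genes of the translation machinery, 6 hosted 14 listed sites and 8 (57.1%) were found, against 14.7% of all listed sites. Of these 8 sites, 7 were in the 3′ UTR of EIF2AK2. That gene codes for PKR, the kinase that senses double-stranded RNA and phosphorylates eIF2 alpha. It had 5 and 3 sites with Torin1 and 3 and 3 with rapamycin. The vehicle samples had 4 and 6 sites at 6 h and 4 and 6 at 2 h, and 85 of the 96 samples held a site of this gene. The EIF2AK2 site at chr2:37100519 had levels of 0.225 and 0.374 with Torin1 and 0.275 and 0.342 with rapamycin. Both drugs were lower at 3 h than at 6 h at that site.

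In an intron of ZFR, a zinc-finger RNA-binding protein that modulates editing, 5 of 9 listed sites were found, against 14.7% of all listed sites. All 5 were in the rapamycin sample of 3 h, at levels from 0.111 to 0.333. They formed 1 cluster over 68 bases, and 1 vehicle sample of 2 h held 1 of them. For the 34 host genes with ZNF symbols, zinc-finger genes that make up a large family, 15 of 109 listed sites (13.8%, against 14.7% of all listed sites) were found, 3 and 7 with Torin1 and 5 and 8 with rapamycin.

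In coding sequence, 7 sites were found. Besides BLCAP, a synonymous site of SON, a splicing cofactor (codon 594, chr21:33551013), was found in both Torin1 samples at 0.0200 and in neither rapamycin sample, while all 4 vehicle samples held it at 0.0100 to 0.0200. The sites N97D of OR51I1, an olfactory receptor gene, N1759D of AKAP11, an anchoring protein of kinase A, and I635V of COG3, a Golgi tethering subunit, were found only with rapamycin at 3 h, at 0.0700, 0.270 and 0.1. Of the vehicle samples, 3 held the AKAP11 site at 0.160 to 0.380 and 2 held the COG3 site at 0.0900 and 0.140. SPG7, a mitochondrial protease gene, had a site at chr16:89529201 with 0.2 with Torin1 at 3 h only.

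The base before the edited adenosine was U at 52.6% and 49.4% of the Torin1 sites and 57.7% and 50.0% of the rapamycin sites at 3 h and 6 h, against 49.3% of the list. G, a base that ADAR enzymes disfavour there, preceded 3.83% and 3.98% of the Torin1 sites and 2.65% and 5.14% of the rapamycin sites. The drugs thus differed by at most a few percentage points in this position, and the direction for G turned between the times.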

How the data were processed

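RNA-seq of K562 cells was analysed from the list of editing sites that the authors deposited. Editing levels are fractions from 0 to 1 that the authors averaged over the tools that detected a site in a sample, after trimming, alignment to GRCh38 with TopHat2 2.1.1, duplicate removal (the processing notes name Picard 2.0.1 and SAMtools 1.9), prediction with REDItools, RED-ML and SPRINT and removal of variants and of sites in repeats. Sites whose maximum level did not exceed 0.2 were also removed, so weakly edited sites are missing. The authors likewise removed sites predicted in only 1 of their 130 samples. A level of 0 was read as no level recorded. Of 130 columns, 34 belong to samples of earlier publications and were not used, and 57 sites without levels were left out. The list gives no depth per site, so single levels have no interval. Reads per library are the study's totals.

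Host genes and codons came from GENCODE 44, matched by strand, and 56 of the sites found lay in more than 1 gene. Clusters joined sites within 100 bases. Intervals of shares are Wilson 95% intervals and cover counting error only, and sites of one cluster are not independent. Drugs were compared within each time, with exact two-sided permutation tests over the 2 times. Python 3.11.15, numpy 2.4.6, scipy 1.17.1, pandas 2.3.3 and pysam 0.24.0 were used, and the calculations were tested on simulated data. Named were up to 8 sites in each direction with the largest mean difference among those found in all 4 samples and differing one way at both times, the 6 genes with the most sites found, up to 8 genes in each direction with sites found at both times with one drug only, the genes of the lists, and the coding sites. The list of editing regulators is reported here only in part. The samples and gene lists were chosen with earlier results of these data known. Alternatives were a minimum level of 0.1 or 0.2, at least 5 samples or 2 tools per site, 1 site per cluster, the mean in place of the median, 0 taken as a level, and other thresholds for a large difference. Leaving out SMU1 and the search for inverted copies were added after the data had been seen.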

Additional observations from a re-analysis of the deposited data

Results flagged for a closer look

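The number of sites found, Torin1 over rapamycin, was 1.52 at 3 h and 0.822 at 6 h, so the 1 pair of each time went in opposite directions. With 1 sample for each drug and time, this difference between the times was not tested. The libraries held 27398956 (Torin1) and 30799286 (rapamycin) reads at 3 h and 34172633 and 34702140 reads at 6 h, and the part of depth in the result was not tested.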

How the results depend on the processing

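Beyond the pairing by time used for the drugs, no paired analysis was possible because the drug samples share no replicate numbers. The ratio of sites found stayed between 1.32 and 1.71 at 3 h and between 0.788 and 0.875 at 6 h under all alternatives run. The median level difference at 3 h turned to 0.0812 when sites found with 1 drug counted as level 0 in the other, and at 6 h the mean difference was 1.7e-05 against a median just below 0. The shared percentage of Torin1 sites at 3 h was 19.6 with levels of at least 0.2 and 36.8 with 1 site per cluster, and at 6 h it was 43.8 with 1 site per cluster. With a threshold of 0.1 or 0.3, 37 or 11 shared sites passed at 3 h and 30 or 4 at 6 h. The percentage in 3′ UTRs moved for Torin1 at 3 h to 7.94 (levels of at least 0.2), 11.5 (1 site per cluster) and 12.8 (without SMU1), for Torin1 at 6 h to 15.5 and 17.2 under the first 2 of these, and for rapamycin to 6.25 at 3 h and 6.62 at 6 h with levels of at least 0.2. The difference between the drugs in that percentage turned to -0.780 percentage points at 3 h with 1 site per cluster, by counting clusters in place of sites,, and at 6 h it ranged from 4.37 to 12.1 against 14.9. The causes of the other changes were not tested. Depth per site is unknown, so absence of a site cannot be told apart from low coverage.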
